A study of Mus musculus with 12 samples.

Results

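The expression of 9 genes used to recognise monocytes and macrophages, namely Lyz2, Ccr2, Ly6c2, Mpeg1, Cx3cr1, Cd68, Adgre1, Itgam and Cd14, was examined in sorted mouse LSKs. These genes were chosen by name out of 53465 genes in the expression table, and each name matched 1 gene. LSKs are bone marrow cells that lack lineage markers and carry Sca-1 and c-Kit, a gate that holds hematopoietic stem cells and multipotent progenitors. RNA sequencing covered 12 libraries in 4 groups of 3. The groups were LSKs of untreated wild-type mice, of untreated Tespa1-/- mice, and of wild-type and Tespa1-/- mice given 5-fluorouracil (5-FU), a drug that kills cycling cells, and taken on day 9. Per the study's methods, mice were male and 8 to 10 weeks old, the 5-FU dose was 150 mg/kg, and the Tespa1-/- line carried the germline allele B6.129S-Tespa1 tm1Smoc, backcrossed to C57BL/6 for more than 6 generations. The labels call the untreated wild-type animals littermates. They do not say whether libraries of a group came from separate mice, so p-values measure only the spread between these libraries, which may be technical.

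Monocytes arise in the marrow from progenitors that take up the myeloid fate under transcription factors such as PU.1, C/EBP alpha, IRF8 and KLF4, and leave for the blood through the chemokine receptor CCR2. Classical monocytes carry much Ly6C and CCR2, whereas patrolling monocytes carry little Ly6C and much CX3CR1. In tissues, monocytes and embryonic precursors give rise to macrophages, which engulf particles, recycle iron and sense microbes. Several of the genes are not private to this lineage: neutrophils also contain lysozyme and carry CD11b, and progenitors transcribe some myeloid genes at a low level before commitment.

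Library totals ranged from 22118154 to 28275079 counts. Levels are given as CPM, counts per 1000000 counts of the library, scaled by TMM factors over the 12 libraries, and a count of 3, the detection floor used here, equals 0.106 to 0.136 CPM. Tespa1 lay at 43.0 to 49.8 CPM in wild-type untreated libraries and at 34.5 to 34.9 CPM in Tespa1-/- untreated ones. After 5-FU it lay at 47.2 to 57.5 CPM in wild type and at 17.3 to 20.8 CPM in Tespa1-/- libraries, so reads from the gene were fewer in the knockout libraries of both treatments but not absent. The part of Tespa1 that the allele removes is not given in the sources used here. All 8 LSK marker genes were detected, with a summed level of 1520 to 1592 CPM in wild-type untreated, 1267 to 1306 in Tespa1-/- untreated, 1239 to 1294 in wild-type 5-FU and 744 to 814 CPM in Tespa1-/- 5-FU libraries. Between the genotypes after 5-FU, 6 of the 8 were lower in Tespa1-/- cells and none was higher. With 5-FU they moved both ways, 2 higher and 2 lower in wild type and 3 higher and 2 lower in Tespa1-/- cells. In bulk RNA, fewer cells of a type and less RNA per cell cannot be told apart.

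All 9 monocyte and macrophage genes passed the filter on low counts in every comparison. After 5-FU, Lyz2 and Itgam were higher and Ccr2 was lower in Tespa1-/- than in wild-type LSKs, which is 2 genes called higher and 1 lower of 9, at an adjusted p below 0.05 in edgeR's quasi-likelihood test. Over all genes tested in that comparison, 7.34% were called higher and 5.78% lower. The median log2 fold change of the 9 genes was 0.60, against -0.01 for all genes. That median is the value of 1 gene, Cx3cr1 (0.60 ± 0.51, adjusted p = 0.52, edgeR), which ranged from 0.17 to 0.95 without 1 library. In untreated cells Ly6c2 was higher and Cd14 lower in Tespa1-/- LSKs, 1 of 9 in each direction, where 1.64% of all genes were called higher and 3.59% lower, and the median of the 9 was 0.01, equal to that of all genes.

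**Figure D1:**
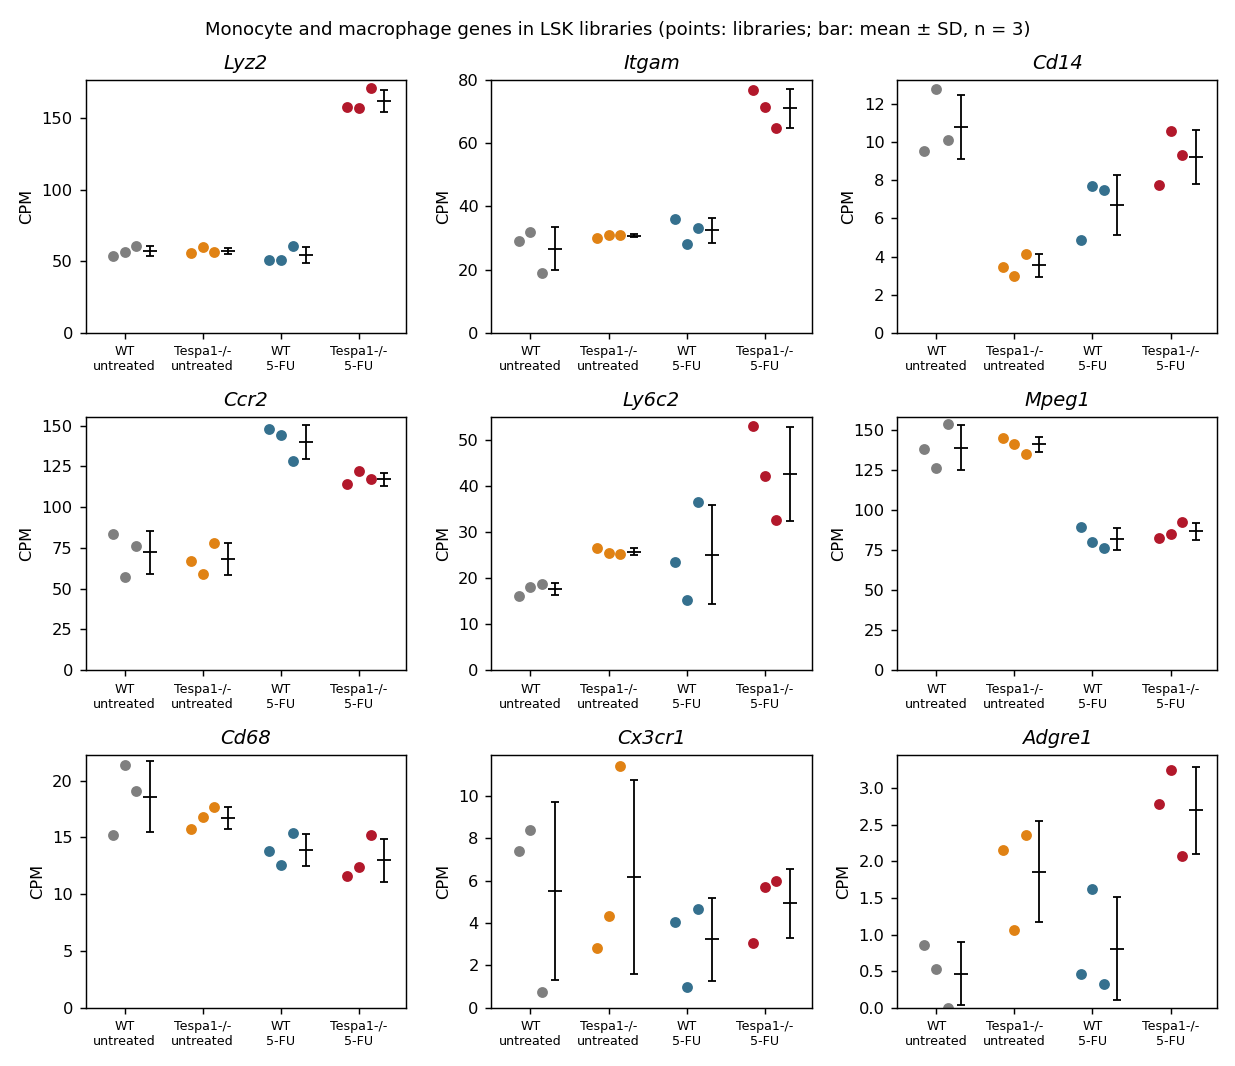
CPM of each of the 9 genes (y axis, linear from 0) in the 12 LSK libraries by group (x axis). Points are libraries, and the black bars give the mean and SD of 3. Lyz2 and Itgam stand high in the 3 Tespa1-/- 5-FU libraries and nowhere else, Ccr2 is higher and Mpeg1 lower in both 5-FU groups, and Cd14 is lowest in untreated Tespa1-/- libraries.

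Lyz2 (ENSMUSG00000069516, minus strand, chr10:117277331-117282321 of GRCm38) encodes lysozyme M, the bacteriolytic enzyme of phagocytes. Its level was 53.9, 56.8 and 61.0 CPM in wild-type untreated, 55.6, 59.8 and 56.5 CPM in Tespa1-/- untreated, 51.0, 51.0 and 60.5 CPM in wild-type 5-FU, and 158, 157 and 171 CPM in Tespa1-/- 5-FU libraries. The first 3 groups overlapped, and every Tespa1-/- 5-FU library lay far above all of them. Between genotypes after 5-FU the log2 fold change was 1.58 ± 0.09 (SE; 2.99-fold; adjusted p = 5.8e-06, edgeR), whereas in untreated cells it was 0.00 ± 0.08 (adjusted p = 0.989). Between 5-FU and untreated cells it was 1.49 ± 0.06 in Tespa1-/- (adjusted p = 1.4e-06) and -0.08 ± 0.10 in wild type (adjusted p = 0.731). The difference between the genotypes' responses, tested as an interaction over all 12 libraries, was 1.58 ± 0.11 on the log2 scale (adjusted p = 4.4e-06). The call held when any 1 library was left out and under every other setting tried. Lyz2 lies 13 Mb from Tespa1 on the same chromosome, and any part of that linkage in its levels was not tested.

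A near copy of this gene, Lyz1, which in mice encodes the lysozyme of Paneth cells in the gut, lies beside it. Lyz1 had 0 counts in 11 libraries and 2 in 1 Tespa1-/- 5-FU library, at or under the floor throughout. Of 1267 distinct 50-base stretches in the Lyz2 transcript, 195 (15.4%) also occur in Lyz1, and the longest shared run has 118 bases. How the counting treated reads that match both is not given in the sources used here. The upstream sequences of the copies are shown because they are so alike while only 1 copy had counts above the floor. They come from RefSeq (GRCm38.p6), each reads toward the gene, both lie on the minus strand, and they were ended where the annotated Lyz2 transcript begins and at the aligned base for Lyz1. Capitals mark bases that differ from the aligned base of the other copy or have no partner there.
Lyz2 upstream, chr10:117282322-117282522: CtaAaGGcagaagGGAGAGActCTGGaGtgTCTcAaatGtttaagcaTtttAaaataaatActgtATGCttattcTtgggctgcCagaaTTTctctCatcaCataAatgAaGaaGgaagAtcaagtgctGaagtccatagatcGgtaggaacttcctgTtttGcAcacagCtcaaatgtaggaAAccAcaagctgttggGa
Lyz1 upstream, chr10:117292918-117293118: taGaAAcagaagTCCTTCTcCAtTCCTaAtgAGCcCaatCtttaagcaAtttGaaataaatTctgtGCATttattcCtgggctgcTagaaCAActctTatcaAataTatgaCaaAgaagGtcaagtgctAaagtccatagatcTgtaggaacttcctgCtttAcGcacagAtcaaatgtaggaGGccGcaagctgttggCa
These 201-base windows were identical in 151 of 203 aligned columns (74.4%).

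Itgam (ENSMUSG00000030786, plus strand, chr7:128062640-128118491) encodes CD11b, the alpha chain of the integrin Mac-1, by which myeloid cells adhere and take up complement-coated particles. Wild-type untreated libraries had 29.0, 31.8 and 18.9 CPM, Tespa1-/- untreated libraries 30.1, 30.9 and 30.9, wild-type 5-FU libraries 35.9, 28.2 and 33.0, and Tespa1-/- 5-FU libraries 77.0, 71.5 and 64.7 CPM. As for Lyz2, the Tespa1-/- 5-FU libraries stood apart and the other groups overlapped. The genotypes differed after 5-FU by a log2 fold change of 1.13 ± 0.12 (2.19-fold; adjusted p = 2.7e-04, edgeR) and in untreated cells by 0.21 ± 0.18 (adjusted p = 0.613). In Tespa1-/- cells the change with 5-FU was 1.20 ± 0.08 (adjusted p = 2.7e-05), and in wild-type cells 0.29 ± 0.20 (adjusted p = 0.459). The interaction was 0.93 ± 0.22 (adjusted p = 0.031), but it passed the threshold in only 3 of the 12 fits made with 1 library fewer (adjusted p = 0.0646 to 0.0831 in the other fits), namely those without wild-type untreated replicate 3, wild-type 5-FU replicate 1 or Tespa1-/- 5-FU replicate 3. The study's lineage cocktail for flow cytometry included antibodies to CD11b and to Gr-1, which binds Ly6 proteins, so cells with much surface CD11b were to be kept out of the gate. The cocktail also held antibodies to T cell, B cell and red cell antigens, and mature cells were depleted before sorting. Exons of Itgam overlap those of Gm49368, annotated on the same strand, which was given 0 to 153 counts per library against 417 to 2105 for Itgam.

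The 250 bases before the Itgam start site, on the plus strand, are shown because the myeloid factor PU.1 is known to act at this promoter, with matches to GAGGAA, the core letters searched for PU.1, in capitals. The window of Cd68, on the minus strand, is shown as the only one of the 7 windows searched that held matches to all of the motifs described next, which are in capitals.
Itgam upstream, chr7:128062390-128062639: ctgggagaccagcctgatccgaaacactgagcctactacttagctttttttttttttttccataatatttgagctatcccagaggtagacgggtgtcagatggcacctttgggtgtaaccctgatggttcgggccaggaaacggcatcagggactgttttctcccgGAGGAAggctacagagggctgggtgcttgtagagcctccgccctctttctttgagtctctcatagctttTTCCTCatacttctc
Cd68 upstream, chr11:69666171-69666420: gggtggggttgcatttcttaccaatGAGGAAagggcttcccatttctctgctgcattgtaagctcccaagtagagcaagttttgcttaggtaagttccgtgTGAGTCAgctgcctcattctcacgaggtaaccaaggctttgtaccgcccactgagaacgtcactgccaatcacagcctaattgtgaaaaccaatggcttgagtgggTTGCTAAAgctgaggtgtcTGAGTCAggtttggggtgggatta
The motifs searched on both strands in the 250 bases before each promoter start site were GAGGAA (PU.1), TTNNGCAA (C/EBP) and TGANTCA (AP-1). They occurred in 23.1%, 9.55% and 6.87% of 27025 promoter windows of the same length. Itgam held 2 matches to GAGGAA, Ly6c2 held 1, and Cd68 held 1 with 1 match to TTNNGCAA and 2 to TGANTCA. Lyz2, Ccr2, Mpeg1 and Cx3cr1 held none of them, which says only that these letters are not in those windows. The start sites behind the windows of Ccr2 and Cx3cr1 lie 233 and 1583 bases inside the table's genes, so these windows lie mostly or wholly within the annotated genes. The start site behind the Lyz2 window lies 49 bases inside, so the last 49 of its 250 bases are in the annotated gene.

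Markers of other cells moved with Lyz2 and Itgam. The 12 neutrophil markers summed to 2.54 to 2.67 CPM in wild-type untreated, 6.93 to 8.03 in Tespa1-/- untreated, 9.13 to 13.3 in wild-type 5-FU and 1051 to 1057 CPM in Tespa1-/- 5-FU libraries. After 5-FU 10 of the 12 were called higher in Tespa1-/- cells, among them S100a9 (1.29 ± 0.36 against 316 ± 10.2 CPM, SD, n = 3) and Ngp (1.25 ± 1.20 against 250 ± 11.7 CPM), which encode proteins of neutrophil cytosol and granules. Cxcr2, the chemokine receptor of mature neutrophils, had 5.51 ± 1.24 against 4.08 ± 2.81 CPM (adjusted p = 0.595), and Ly6g had 0.08 ± 0.14 against 1.24 ± 0.57 CPM (adjusted p = 0.0722). In the wild-type 5-FU libraries Retnlg and Cd177 had 0 counts, whereas no marker on the list was at 0 in a Tespa1-/- 5-FU library. The 5 eosinophil markers summed to 5.22 to 6.78 CPM in wild-type 5-FU and 608 to 636 CPM in Tespa1-/- 5-FU libraries, and the 10 erythroid markers to 244 to 268 and 682 to 719 CPM. The part of these markers' cells in the Lyz2 and Itgam results was not tested.

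**Figure D2:**
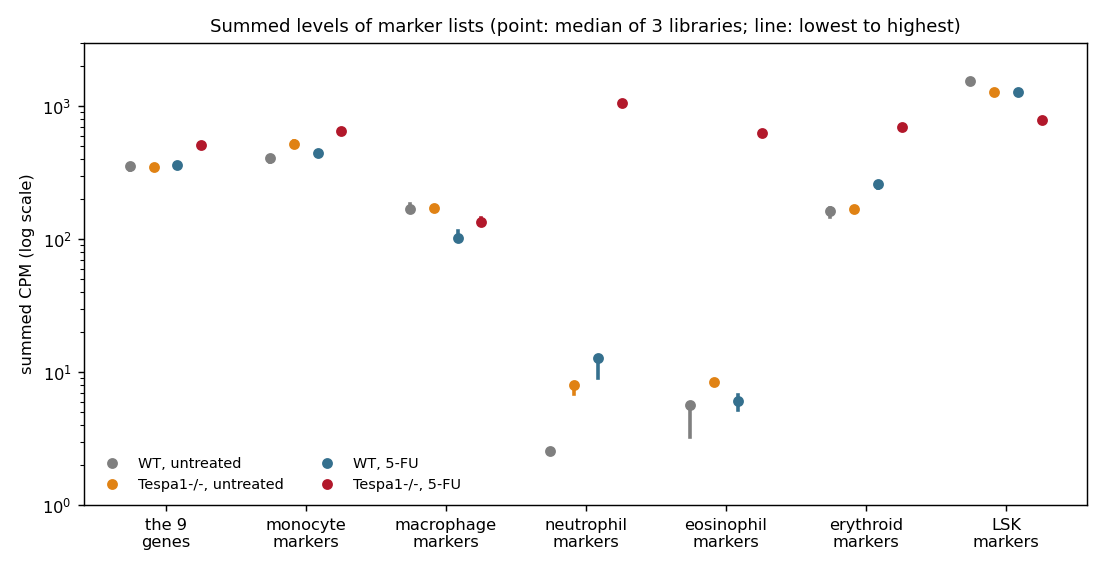
Summed CPM (log scale, y axis) of the 9 genes and of marker lists of 6 cell types (x axis) in the 4 groups. Points give the median of 3 libraries and lines the lowest to the highest. The 9 genes sum to 509 to 510 CPM in Tespa1-/- 5-FU libraries against 341 to 371 CPM in wild-type 5-FU libraries, while the neutrophil markers sum to 1051 to 1057 against 9.13 to 13.3 CPM.

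Cd14 (ENSMUSG00000051439) encodes the co-receptor that hands bacterial lipopolysaccharide to TLR4. Wild-type untreated libraries had 9.56, 12.8 and 10.1 CPM, Tespa1-/- untreated libraries 3.47, 2.97 and 4.15, wild-type 5-FU libraries 4.87, 7.71 and 7.48, and Tespa1-/- 5-FU libraries 7.75, 10.6 and 9.35 CPM. Untreated Tespa1-/- libraries were thus the lowest of all 12, and the order of the genotypes was opposite after 5-FU. In untreated cells the log2 fold change between genotypes was -1.61 ± 0.21 (3.06-fold lower in Tespa1-/-; adjusted p = 0.00413, edgeR), and after 5-FU it was 0.46 ± 0.24 (adjusted p = 0.27), with groups that did not overlap in either treatment. With 5-FU, Cd14 rose in Tespa1-/- cells by 1.37 ± 0.21 (adjusted p = 0.00246) and in wild type its log2 fold change was -0.69 ± 0.25 (adjusted p = 0.134). The interaction of 2.08 ± 0.33 (adjusted p = 0.00231) was the largest of the 9 genes and held with any 1 library left out. Counts were low, from 67 to 287 per library.

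Ccr2 (ENSMUSG00000049103, plus strand, chr9:124101950-124113557) encodes the receptor for CCL2 by which monocytes leave the marrow. Its levels were 83.3, 57.3 and 75.9 CPM in wild-type untreated, 67.1, 58.8 and 78.2 CPM in Tespa1-/- untreated, 148, 144 and 128 CPM in wild-type 5-FU, and 114, 122 and 117 CPM in Tespa1-/- 5-FU libraries. Every 5-FU library was above every untreated one, in both genotypes. The rise with 5-FU was 0.95 ± 0.13 on the log2 scale in wild type (1.94-fold; adjusted p = 0.00243, edgeR) and 0.77 ± 0.10 in Tespa1-/- cells (1.71-fold; adjusted p = 8.2e-04), with an interaction of -0.17 ± 0.18 (adjusted p = 0.694). After 5-FU the Tespa1-/- libraries lay below the wild-type ones, with a log2 fold change of -0.26 ± 0.07 (1.19-fold lower; adjusted p = 0.0459), close to the threshold. This call was lost without any of Tespa1-/- 5-FU replicates 1, 2 and 3 or wild-type 5-FU replicates 1 and 2 (adjusted p = 0.139, 0.0807, 0.124, 0.138 and 0.13), and also with no filter on low counts, with all 12 libraries in 1 fit or with replicate number as a block (0.0864, 0.217 and 0.0799).

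Ly6c2 (ENSMUSG00000022584, minus strand, chr15:75108158-75111970) encodes the Ly6C antigen of classical monocytes. Its level was 16.2, 18.0 and 18.7 CPM in wild-type untreated and 26.6, 25.6 and 25.2 CPM in Tespa1-/- untreated libraries. After 5-FU it was 23.6, 15.2 and 36.6 CPM in wild-type and 53.1, 42.2 and 32.7 CPM in Tespa1-/- libraries. Untreated groups were tight and separate, whereas both 5-FU groups were spread widely and overlapped. In untreated cells Ly6c2 was 1.47-fold higher in Tespa1-/- LSKs (log2 0.55 ± 0.11; adjusted p = 0.0279, edgeR), a call lost without any 1 untreated library except wild-type replicate 3 (adjusted p = 0.0641 to 0.128), and also with no filter, with all 12 libraries in 1 fit or with replicate number as a block (0.0512, 0.275 and 0.084). After 5-FU the difference was 0.76 ± 0.29 (adjusted p = 0.125), and without wild-type 5-FU replicate 3 it was 1.13 (adjusted p = 0.0285). DESeq2 called it with all libraries kept (log2 0.76; adjusted p = 0.0246). Ly6c2 rose with 5-FU in Tespa1-/- cells by 0.72 ± 0.16 (adjusted p = 0.0135; 0.0554 and 0.0547 without untreated Tespa1-/- replicates 2 and 3, and 0.0668 with all 12 libraries in 1 fit) and in wild type its log2 fold change was 0.52 ± 0.28 (adjusted p = 0.326). The interaction was 0.21 ± 0.35 (adjusted p = 0.819).

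Ly6c1, the neighbouring near copy of Ly6c2, shares 379 of the 2733 distinct 50-base stretches of the Ly6c2 transcripts (13.9%), with a longest shared run of 188 bases, so counts of the pair could be split between them. Ly6c1 had 1.91, 1.54 and 4.58 CPM in wild-type 5-FU and 6.65, 7.21 and 7.90 CPM in Tespa1-/- 5-FU libraries, a log2 fold change of 1.43 ± 0.40 (adjusted p = 0.0435, edgeR; lost in 5 of the 6 fits without 1 library). In wild-type untreated libraries Ly6c1 had 94, 0 and 77 counts, the 0 in replicate 2, where Ly6c2 had 404 counts. How the counting divided reads between the pair is not given in the sources used here.

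Mpeg1 (ENSMUSG00000046805, plus strand, chr19:12460779-12465284) encodes perforin-2, a pore-forming protein that macrophages turn on engulfed bacteria. It had 138, 126 and 154 CPM in wild-type untreated and 145, 141 and 135 CPM in Tespa1-/- untreated libraries, against 89.4, 79.9 and 76.3 CPM in wild-type 5-FU and 82.8, 84.8 and 92.7 CPM in Tespa1-/- 5-FU libraries. All untreated libraries were above all 5-FU libraries, and the genotypes overlapped within each treatment. Mpeg1 fell with 5-FU by 0.77 ± 0.10 on the log2 scale in wild type (1.70-fold; adjusted p = 0.00146, edgeR) and fell by 0.71 ± 0.06 in Tespa1-/- cells (1.63-fold; adjusted p = 1.1e-04). Between genotypes the difference was 0.01 ± 0.08 in untreated cells (adjusted p = 0.95) and 0.08 ± 0.09 after 5-FU (adjusted p = 0.618), and the interaction was 0.07 ± 0.12 (adjusted p = 0.823). Of the 9 genes, Ccr2 was higher and Mpeg1 lower with 5-FU in both genotypes. Markers of other cells moved with 5-FU as well: the 8 B cell markers summed to 64.1 to 77.1 CPM in wild-type untreated and 287 to 299 CPM in wild-type 5-FU libraries, and to 42.2 to 48.2 and 327 to 344 CPM in the Tespa1-/- groups, with 7 called higher in each genotype. The 10 dendritic cell markers summed to 661 to 671 and 357 to 368 CPM in wild type and to 551 to 558 and 213 to 222 CPM in Tespa1-/- libraries, with 2 called lower and none higher of 7 tested in wild type and 3 lower and 2 higher of 8 in Tespa1-/-. The median log2 fold change of this list with 5-FU was 0.02 in wild type and -0.16 in Tespa1-/- cells. The lower sums thus rest on part of the list, which also holds the LSK marker Flt3. The part of B cells and dendritic cells in the Ccr2 and Mpeg1 results was not tested. The study's lineage cocktail included an antibody to a B cell antigen.

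The 3 remaining genes were called in no comparison by edgeR's quasi-likelihood test with all libraries kept. Cd68 (ENSMUSG00000018774, minus strand, chr11:69664213-69666153), which encodes macrosialin of macrophage lysosomes, had 15.2, 21.4 and 19.1 CPM in wild-type untreated, 15.7, 16.8 and 17.7 CPM in Tespa1-/- untreated, 13.8, 12.6 and 15.4 CPM in wild-type 5-FU, and 11.6, 12.4 and 15.2 CPM in Tespa1-/- 5-FU libraries. Values in the 5-FU libraries had log2 fold changes against untreated ones of -0.41 ± 0.18 in wild type (adjusted p = 0.224, edgeR) and -0.37 ± 0.15 in Tespa1-/- cells (adjusted p = 0.125). Between genotypes the log2 fold change of Cd68 was -0.15 ± 0.15 in untreated cells and -0.10 ± 0.18 after 5-FU.

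Cx3cr1 (ENSMUSG00000052336, minus strand, chr9:119901616-120069879), the fractalkine receptor of patrolling monocytes and microglia, varied more within groups than between them. It had 7.42, 8.40 and 0.725 CPM in wild-type untreated, 2.81, 4.35 and 11.4 CPM in Tespa1-/- untreated, 4.05, 1 and 4.67 CPM in wild-type 5-FU, and 3.07, 5.70 and 6 CPM in Tespa1-/- 5-FU libraries. The lowest and the highest library, with 16 and 261 counts, were both untreated. Its variance over replicates was 13.9 to 77.2 times that of counting alone in the 4 groups, against a median of 3.56 to 8.09 over genes with a mean of at least 20 counts. No difference between groups passed the test (adjusted p = 0.52 to 0.942, edgeR). The annotated gene spans other genes, but its exons overlap only those of Gm33858, which had 0 to 13 counts.

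Adgre1 (ENSMUSG00000004730, plus strand, chr17:57358686-57483529) encodes F4/80, the adhesion G-protein-coupled receptor that marks mouse macrophages, and had the lowest mean count of the 9 genes in each group. The counts were 24, 12 and 0 in wild-type untreated, 49, 24 and 54 in Tespa1-/- untreated, 12, 42 and 8 in wild-type 5-FU, and 76, 84 and 46 in Tespa1-/- 5-FU libraries. In CPM the Tespa1-/- libraries were above the wild-type libraries within each treatment, from 1.06 to 2.36 against 0 to 0.856 in untreated cells and from 2.08 to 3.25 against 0.33 to 1.62 after 5-FU. The log2 fold changes of 1.97 ± 0.91 (adjusted p = 0.303, edgeR) and 1.73 ± 0.62 (adjusted p = 0.105) did not pass. By the study's thresholds, fold above 1.5 and unadjusted p below 0.05, the value after 5-FU passed (3.32-fold, unadjusted p = 0.0201, edgeR). Without wild-type 5-FU replicate 2, the highest wild-type library, it was 2.74 (adjusted p = 0.0184). The untreated value ranged from 1.40 to 2.77 without 1 library and was called in none of these fits. A count of 0 in 1 library allows up to 0.134 CPM there, by counting error only.

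**Figure D3:**
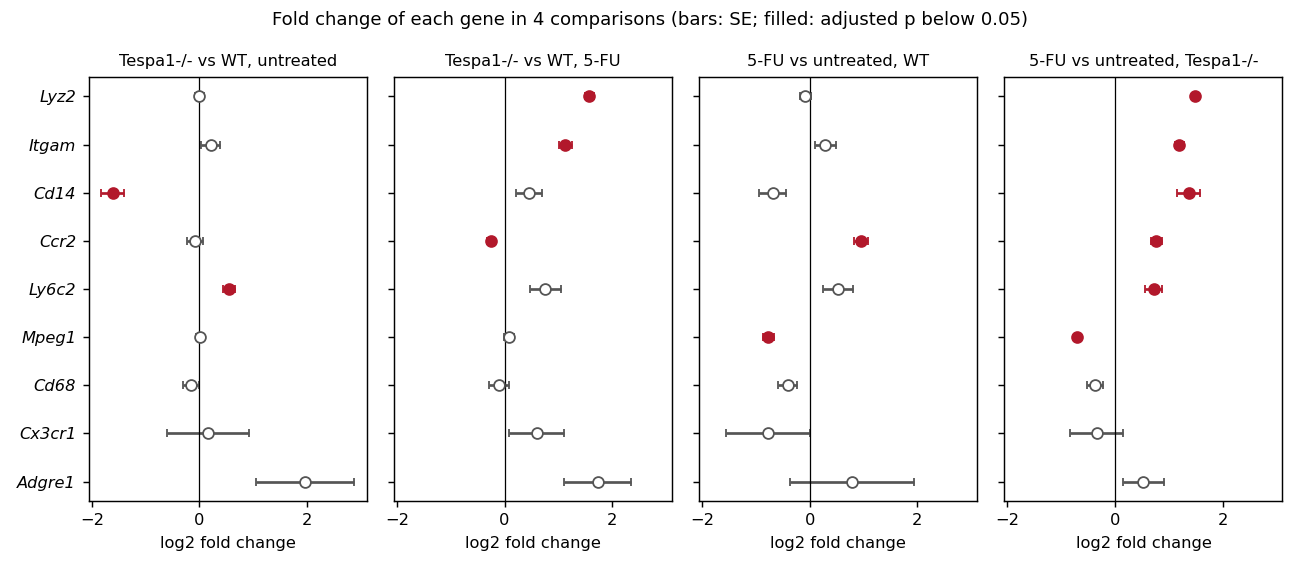
Log2 fold change (x axis) of each gene (rows) in 4 comparisons (panels), with bars for the SE of edgeR's fit and filled points for adjusted p below 0.05. Lyz2 and Itgam are called in both comparisons that involve the Tespa1-/- 5-FU group, Cd14 falls on opposite sides of 0 by genotype in untreated and 5-FU cells, and the bars of Cx3cr1 and Adgre1 are wide.

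With 5-FU, 1 of the 9 genes rose and 1 fell in wild-type cells, where 3.77% of all genes tested were called higher and 4.18% lower. In Tespa1-/- cells 5 rose (Lyz2, Itgam, Cd14, Ccr2 and Ly6c2) and 1 fell (Mpeg1), where 10.7% of all genes were called higher and 8.64% lower. The medians of the 9 were -0.08 and 0.72, the values of Lyz2 and Ly6c2 in that order, against 0.01 and -0.01 for all genes. These comparisons share their groups with those between genotypes and are not separate evidence. In the interaction 3 of 9 were called in the positive direction and none in the negative, where 3.02% and 1.99% of all genes were called. By the other tool, DESeq2, the interaction called 3 of the 9 and 1535 genes in all, and at an unadjusted p under 0.05 in edgeR there were 3 of the 9 and 3494 of all 18696 genes tested.

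Set side by side per kilobase of exon, Lyz2 was the highest of the 9 in every group, at 43.5 ± 2.74 CPM per kb in wild-type untreated, 43.5 ± 1.66 in Tespa1-/- untreated, 41.1 ± 4.19 in wild-type 5-FU and 123 ± 5.79 CPM per kb in Tespa1-/- 5-FU cells (SD, n = 3). Mpeg1 came next in untreated cells of both genotypes, at 32.2 ± 3.20 and 32.4 ± 1.13 CPM per kb, and Adgre1 came last in every group, at 0.14 to 0.84. Ccr2 ranked below Lyz2, Mpeg1 and Cd68 in both untreated groups, at 10.7 ± 1.98 and 10.1 ± 1.44 CPM per kb, next after Lyz2 in wild-type 5-FU cells, at 20.7 ± 1.54, and after Lyz2 and Mpeg1 in Tespa1-/- 5-FU cells, at 17.4 ± 0.59. Lyz2 did not overlap the next gene in any group. Of the 8 pairs of neighbours in this order, 4 overlapped in wild-type untreated, 3 in Tespa1-/- untreated, 4 in wild-type 5-FU and 3 in Tespa1-/- 5-FU cells, so those orders did not differ beyond their spread. Ccr2 and Mpeg1 overlapped in wild-type 5-FU cells (18.9 to 21.8 and 17.6 to 20.6 CPM per kb), and Cx3cr1 and Adgre1 overlapped in all 4 groups. By the deposited FPKM Lyz2 was again the highest in every group, but Mpeg1 came above Ccr2 in wild-type 5-FU cells (19.3 against 9.89 FPKM), Ccr2 ranked lower in the other groups as well, Cd14 ranked higher in wild-type untreated cells, and Cx3cr1 came last in Tespa1-/- 5-FU cells.

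Over the 12 libraries, log2(CPM + 1) of Lyz2 had its highest Pearson correlations with Slfn1, Prg3 and Slc4a1 (r = 0.99 each), the second a granule protein of eosinophils and the third the anion exchanger of red cells, all near 0 outside the Tespa1-/- 5-FU group; none of the 3 stayed on top with a pseudocount of 0.1. For Itgam they were Man2a1, Abcf1 (both r = 0.98) and Fech (r = 0.97), for Ccr2 B3gnt7 (r = 0.97), H1f0 and Grb10 (both r = 0.96), and for Mpeg1 they included Rps3 (r = 0.98) and Serpinf1 (r = 0.97). With a pseudocount of 0.1 Fech did not stay on top, whereas the others named for Itgam, Ccr2 and Mpeg1 did. Among the 9 themselves, Lyz2 and Itgam had r = 0.90, Ly6c2 and Itgam r = 0.80, and Ccr2 and Mpeg1 r = -0.89. The 12 points are 4 groups of 3, so each r mainly reflects group means and is given as a description.

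Other genes of the lineage were taken from lists chosen with earlier results of these data known. Of 17 other classical monocyte genes tested, 5 were higher and 4 lower in Tespa1-/- than in wild-type LSKs after 5-FU, where 7.34% of all genes were called higher and 5.78% lower, with a median log2 fold change of 0.31 for the list. Chil3, a chitinase-like protein that neutrophils and monocytes secrete, had 53.1 ± 4.12 CPM in Tespa1-/- cells against 0, 3 and 0 counts in wild type, at least 447-fold higher with each wild-type library set to the floor of 3 counts. Lgals3, the lectin galectin-3, had 0.60 ± 0.28 against 7.79 ± 1.10 CPM (log2 3.70 ± 0.39; adjusted p = 3.1e-04, edgeR), and Fn1, fibronectin, had 5.17 ± 1.10 against 30.0 ± 2.11 CPM (2.53 ± 0.19; adjusted p = 4.0e-05). In the other direction, the membrane protein genes Ms4a6b and Ms4a6c were lower, at log2 fold changes of -1.14 ± 0.15 and -0.71 ± 0.10 (adjusted p = 1.0e-03 and 0.00188), and Emb, embigin, was lower at -0.57 ± 0.09 (adjusted p = 0.00264). Classical monocyte genes therefore did not move one way.

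Of 17 tissue macrophage genes tested, 5 were higher and none lower in Tespa1-/- cells after 5-FU, with a median of 1.04, against 7.34% higher and 5.78% lower over all genes. Vcam1, the adhesion molecule of marrow macrophages and stroma, had 3.06 ± 0.23 against 16.9 ± 3.11 CPM (log2 2.46 ± 0.22; adjusted p = 1.2e-04, edgeR). Slc40a1, the iron exporter ferroportin, had 3.05 ± 1.07 against 19.0 ± 0.73 CPM (2.63 ± 0.27; adjusted p = 2.6e-04), and Hmox1, heme oxygenase, had 1.59 ± 0.73 against 5.28 ± 1.12 CPM (1.73 ± 0.38; adjusted p = 0.0169). Slc40a1 and Hmox1 are also used by erythroid cells, whose 10 markers were all called higher in the same comparison. The part of erythroid cells in these values was not tested. Of 10 non-classical monocyte genes tested, 1 was higher and 1 lower: Ear2, a ribonuclease also made by eosinophils, had 18.6 ± 3.42 CPM against 0 counts in wild type (at least 156-fold higher by the same floor, with reads that other Ear genes may share), and Nr4a1, the nuclear receptor on which patrolling monocytes depend, was lower, at a log2 fold change of -0.70 ± 0.06 (adjusted p = 1.5e-04).

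Among 21 genes of innate sensing and phagocytosis, 8 were higher and 1 lower in Tespa1-/- cells after 5-FU, with a median of 0.32, beside shares of 7.34% and 5.78% over all genes. Itgb2, which encodes CD18, the beta chain that pairs with CD11b, had 31.3 ± 8.92 against 95.1 ± 8.09 CPM (log2 1.60 ± 0.19; adjusted p = 6.7e-04, edgeR), so both chains of Mac-1 were called higher. Fcgr3, an Fc receptor, had 10.5 ± 1.88 against 37.1 ± 7.84 CPM (1.81 ± 0.20; adjusted p = 4.4e-04). In the same comparison 10 of 12 neutrophil and 4 of 5 eosinophil markers were called higher. The part of these markers' cells in the values of this list was not tested. Tlr13, a sensor of bacterial RNA, was higher by 2.84 ± 0.60 (adjusted p = 0.0135) at a low level of 2.60 ± 0.24 CPM, and Tlr7, a sensor of single-stranded RNA, was lower, at a log2 fold change of -2.20 ± 0.35 (adjusted p = 0.00309). Of 15 lineage regulators tested, 5 were higher and 1 lower, with a median of 0.31. They included Gfi1, a repressor that favours neutrophil over monocyte fate, at 17.2 ± 5.15 against 41.7 ± 3.93 CPM (1.27 ± 0.21; adjusted p = 0.00411), Csf2ra, the GM-CSF receptor alpha chain (1.20 ± 0.11; adjusted p = 1.6e-04), and Egr1, an immediate early factor, the one that was lower (-0.77 ± 0.04; adjusted p = 4.6e-06).

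Between genotypes in untreated cells, where 1.64% of all genes were called higher and 3.59% lower, the same lists held calls in both directions. Of 16 other classical monocyte genes 2 were higher, F13a1, coagulation factor XIII A, by 0.99 ± 0.09 (104 ± 14.0 against 206 ± 2.93 CPM; adjusted p = 6.1e-04, edgeR) and Csf1r, the M-CSF receptor, by 0.48 ± 0.09 (adjusted p = 0.0251). Csf1r is also on the regulator list and is counted there as well. None of 14 tissue macrophage genes was called. Of 15 regulators 2 were higher and 3 lower: Cebpb, a factor of monocytes and of emergency granulopoiesis, was lower, at a log2 fold change of -1.03 ± 0.05 (203 ± 7.30 against 99.3 ± 1.69 CPM; adjusted p = 3.3e-05), Klf4 at -0.82 ± 0.11 (adjusted p = 0.00438) and Egr1 at -0.80 ± 0.08 (adjusted p = 0.00128). Of 7 non-classical genes Nr4a1 was lower, at a log2 fold change of -1.31 ± 0.05 (905 ± 13 against 364 ± 23.7 CPM; adjusted p = 6.7e-06). Of 20 innate sensing genes Cybb, the NADPH oxidase chain of phagocytes, was higher by 0.73 ± 0.15 (adjusted p = 0.03), and Tnf and Nlrp3, a cytokine and an inflammasome sensor, were lower, at log2 fold changes of -1.01 ± 0.11 and -1.32 ± 0.20 (adjusted p = 0.00169 and 0.00894).

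**Figure D4:**
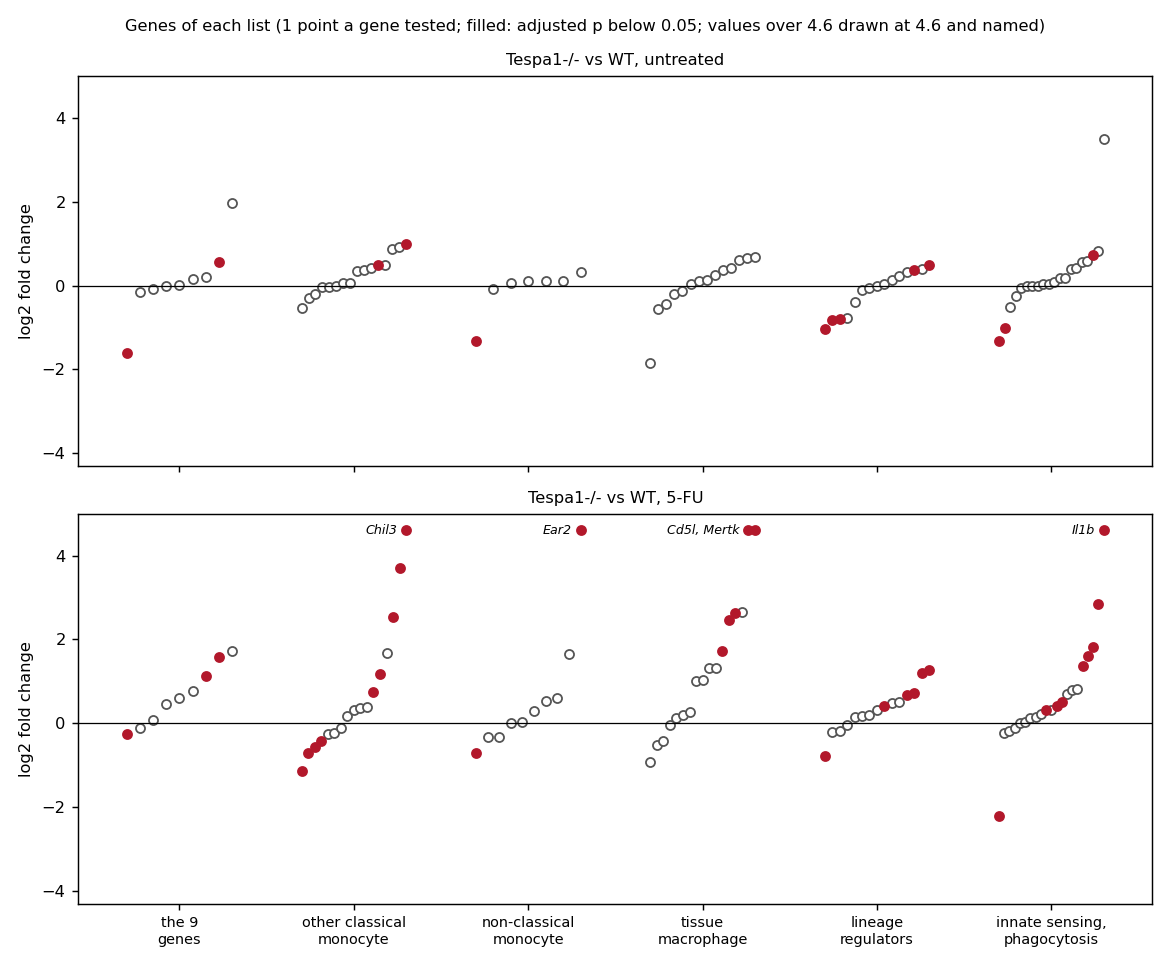
Log2 fold change between Tespa1-/- and wild-type LSKs (y axis) of the 9 genes and of 5 lists of related genes (x axis), in untreated cells (upper panel) and after 5-FU (lower panel). Each point is 1 gene tested, filled where adjusted p was below 0.05, and values over 4.6 are drawn at 4.6 with their names. Tissue macrophage genes hold 5 filled points above 0 and none below after 5-FU, and none in untreated cells.

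With 5-FU in wild-type cells, Nr4a1 fell by 1.40 ± 0.04 and Cebpb fell by 1.14 ± 0.06 on the log2 scale (adjusted p = 6.6e-07 and 1.8e-05, edgeR), and Nlrp3 and Tnf fell by 1.95 ± 0.27 and 1.52 ± 0.18 (adjusted p = 0.00264 and 0.00109). Cybb rose by 1.54 ± 0.17 (adjusted p = 7.2e-04) and Csf2rb, the shared beta chain of the GM-CSF receptor, by 0.83 ± 0.08 (adjusted p = 3.9e-04). In total 3 of 16 other classical, 0 of 7 non-classical, 2 of 14 tissue macrophage, 1 of 15 regulator and 2 of 19 innate sensing genes were higher with 5-FU in wild type, and 1, 1, 1, 3 and 2 were lower. In Tespa1-/- cells, where the shares over all genes were 10.7% higher and 8.64% lower against 3.77% and 4.18% in wild type, the same counts were 4 of 17, 3 of 9, 9 of 17, 3 of 16 and 8 of 21 higher, and 6, 3, 0, 4 and 2 lower. The complement genes C1qa and C1qb were among the 9 tissue macrophage genes that rose there (0.22 ± 0.19 to 2.35 ± 0.59 CPM and 0.22 ± 0.22 to 1.93 ± 0.38 CPM, adjusted p = 0.0153 and 0.0272, edgeR). Of the regulators, Csf2rb, Csf2ra and Gfi1 rose there, whereas Csf1r, Irf8 and Klf4 were among the 4 that fell. Log2 fold changes of the latter 3 were -0.56 ± 0.11, -0.44 ± 0.09 and -0.26 ± 0.07 (adjusted p = 0.00867, 0.0108 and 0.034). Irf8 and Klf4 were also lower with 5-FU in wild type, at -0.38 ± 0.07 and -0.87 ± 0.11 (adjusted p = 0.00765 and 0.002). In the interaction, 2 of 17 other classical, 2 of 10 non-classical, 2 of 17 tissue macrophage, 3 of 16 regulator and 4 of 21 innate sensing genes were called in the positive direction, and 2, 0, 0, 0 and 1 in the negative, where the shares over all genes were 3.02% and 1.99%. Cebpb differed by 1.18 ± 0.09 (adjusted p = 4.4e-06), Csf2ra by 1.31 ± 0.14 (adjusted p = 1.4e-04), Itgb2 by 1.57 ± 0.24 (adjusted p = 0.00197) and Vcam1 by 2.43 ± 0.35 (adjusted p = 0.00125). The Cebpb value includes its fall in wild type, from 203 to 91.8 CPM, while untreated Tespa1-/- cells had 99.3 CPM. The negative ones were Tlr7 at -2.76 ± 0.52 (adjusted p = 0.00724), Ms4a6b at -1.12 ± 0.18 (adjusted p = 0.00297) and Ms4a6c at -0.77 ± 0.13 (adjusted p = 0.00324).

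The 11 monocyte markers, which include Lyz2, Ccr2, Ly6c2, Cx3cr1 and Cd14, summed to 381 to 414, 521 to 543, 440 to 461 and 644 to 672 CPM in the 4 groups in the order above, and the 11 macrophage markers, which include Adgre1, Cd68 and Mpeg1, to 163 to 184, 169 to 177, 101 to 116 and 132 to 144 CPM. Mpeg1 alone had means of 139, 141, 81.9 and 86.8 CPM, so the macrophage sums mostly follow that gene. The 19 tissue macrophage genes summed higher with 5-FU. Wild-type libraries had 80.7 to 113 CPM untreated and 158 to 188 CPM with 5-FU. Tespa1-/- libraries had 80.4 to 103 and 195 to 229 CPM. In the untreated monocyte sums, F13a1 alone had 104 CPM in wild type and 206 CPM in Tespa1-/-. Within the monocyte list 2 genes were higher and 2 lower in Tespa1-/- cells after 5-FU of 9 tested, and within the macrophage list 2 were higher and none lower of 11, where all genes gave 7.34% higher and 5.78% lower. Macrophage markers at or under the floor in all 3 wild-type 5-FU libraries were limited to Mertk, a receptor for dying cells, with 0, 1 and 1 counts, against 39, 23 and 25 counts in Tespa1-/- 5-FU libraries.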

How the data were processed

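RNA was measured in 12 libraries of sorted LSKs, in 4 groups of 3 taken from the labels. The deposited table held raw counts per gene, made by the authors, per the labels, with CASAVA 1.8, HISAT2, StringTie and edgeR on GRCm38. The counting program and its use of strand are not given in the sources used here. FPKM deposited by the authors in the same table implied lengths above the union exon length of GENCODE M21 in 78.4% of 11218 genes, so levels of different genes were compared as CPM per kilobase of union exon in place of the planned FPKM, which served only to check that order.

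Counts were tested with the quasi-likelihood test of edgeR 4.0.16 (R 4.3.3, filterByExpr with a minimum count of 10, TMM), on the 6 libraries of a comparison or all 12 for the interaction. Genes with Benjamini-Hochberg adjusted p below 0.05 over all genes tested were called. The code was tested on simulated data. Alternatives were DESeq2 1.42.0, other scalings, filters and thresholds (among them the study's, fold above 1.5 and unadjusted p below 0.05), 1 fit of all libraries, a replicate block and leaving out each library. An exact permutation test of 3 against 3 cannot go below 0.1 and is not printed.

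The 9 genes and all lists were chosen with earlier results of these data known. From each list of related genes at most 3 per direction were named, those with the largest fold change among called genes of mean CPM of at least 1; Lyz1, Ly6c1, Tespa1, Mertk and the neutrophil genes were named as copies, control or markers. RefSeq promoter windows were used for 7 of the 9 genes, not Adgre1 or Cd14, and motifs were chosen after results were seen. Depth was 22118154 to 28275079 counts, and limits from the floor of 3 counts cover counting error only.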

Additional observations from a re-analysis of the deposited data

Results flagged for a closer look

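For Lyz2, Itgam and Cd14 the genotypes differed in their response to 5-FU, by the interaction term of edgeR's quasi-likelihood fit over 12 libraries. The difference between the log2 responses of Tespa1-/- and wild-type LSKs was 1.58 ± 0.11 for Lyz2 (adjusted p = 4.4e-06), 0.93 ± 0.22 for Itgam (adjusted p = 0.031) and 2.08 ± 0.33 for Cd14 (adjusted p = 0.00231). With 1 library left out, Lyz2 and Cd14 passed the threshold in 12 of 12 fits and Itgam in 3 of 12. All 3 Tespa1-/- 5-FU libraries showed the Lyz2 and Itgam values above every other library. The Cd14 value came from a low level in untreated Tespa1-/- libraries, 3.53 against 10.8 CPM in wild type, as well as from the 5-FU groups, 9.23 against 6.69 CPM. Neutrophil markers summed to 1051 to 1057 CPM in the Tespa1-/- 5-FU group and to at most 13.3 CPM in any other library, and their part in these values was not tested.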

How the results depend on the processing

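Of 626 values of the 9 genes under alternatives, 574 kept their direction and their side of the threshold, 28 lost the call, 3 gained it and 21 changed sign. Of 16 called values, 12 were called in every fit and none changed sign. The count of the 9 genes called between genotypes in untreated cells, 2, became 1 with no filter, with all 12 libraries in 1 fit, with the replicate block and under both fold thresholds, and was 1 to 2 without 1 library, as Ly6c2 was lost. Between untreated genotypes, with no filter Lyz2 was -0.02 and Mpeg1 -0.01, and without 1 library the ranges were -0.04 to 0.05 for Lyz2, -0.23 to 0.03 for Ccr2, -0.05 to 0.09 for Mpeg1 and -0.63 to 0.58 for Cx3cr1. With 5-FU the ranges without 1 library were -0.22 to 1.58 for Adgre1 in wild type and -0.69 to 0.45 for Cx3cr1 in Tespa1-/- cells, and for the interaction -0.07 to 0.57 for Ly6c2, -0.01 to 0.14 for Mpeg1, -0.01 to 1.23 for Cx3cr1, -0.08 to 0.18 for Cd68 and -1.04 to 0.76 for Adgre1.

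The labels give same-numbered replicates only a shared number. Correlations over genes of their deviations from group means were -0.0566 to 0.0253, which cannot exclude a batch that moves part of the genes. With the replicate block, 2 of 9 genes were called after 5-FU between genotypes in place of 3 (Ccr2 was lost, at an adjusted p of 0.0799), Ly6c2 was lost in untreated cells (0.084), and over all genes 454 in place of 892 in untreated cells and 1706 in place of 2261 after 5-FU. DESeq2 called 1427 in untreated cells, 2062 with 5-FU in wild type (1352 by edgeR) and 1535 in the interaction (936). All 12 libraries in 1 fit called 2113 with 5-FU in wild type. Fold above 1.5 added to the adjusted p left 1204, 428, 753, 1735 and 601 genes in the comparisons between genotypes after 5-FU and untreated, with 5-FU in wild type and Tespa1-/- (3336), and the interaction, and the study's thresholds gave 1941 for the interaction. Leaving out 1 library gave 1519 to 1710, 338 to 808, 783 to 1102, 2259 to 3060 and 573 to 862 genes. Without TMM, levels of the 9 genes moved by at most 2.39%. Adgre1 had at most 84 counts in a library.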
